A study of Rattus norvegicus with 6 samples.

Results

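Sirtuins are deacylases that consume NAD+ each time they remove an acyl group from a lysine, so their activity depends on the NAD+ supply of the compartment they work in. Nampt catalyses the rate-limiting step of the salvage route that rebuilds NAD+ from the nicotinamide that sirtuins release. In the vessel wall, sirtuins and Nampt are best known from work on smooth muscle aging, senescence, oxidative stress and matrix remodeling. The 7 sirtuin genes Sirt1 to Sirt7 and Nampt were taken from the count table by gene symbol. All 8 genes had a row among the 14475 genes of the table, and each was tested.

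The RNA came from vascular smooth muscle (VSM) cells isolated from the soleus feed artery (SFA), the vessel that supplies the soleus muscle, and grown in serum-containing culture. The young group held 3 libraries from male Fischer-344 rats aged 4 months and the old group held 3 libraries from male Fischer-344 rats aged 24 months. No treatment of the cells before RNA extraction is described. The study used 3 rats per group, and the labels do not say which rat each library came from.

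Total counts ranged from 44235674 to 59700887 per library. Low counts (1 to 19) were even in 68.7% to 71.1% of cases, depending on the library, so mates may have been counted separately, in which case low values such as those of Sirt4 carry more counting error than their size implies. The markers of the labelled cell type were present, with the summed level of 7 smooth muscle genes between 11177 and 20886 CPM (the count per M counts of the TMM-normalized library) in young and between 3445 and 5553 CPM in old libraries. By edgeR's unadjusted p under 0.05, 6 of these 7 genes were lower in old, 3 of 6 fibroblast markers were higher and 3 of 6 proliferation genes were lower, where 11.2% of all genes were higher and 11.5% lower. The 6 fibroblast markers summed to 175 to 436 CPM in young and 498 to 1313 CPM in old, and the 6 proliferation genes summed to 365 to 552 CPM in young and 119 to 395 CPM in old, with old replicate 1 highest in its group. Endothelial markers (4 of 6 genes analysed, with Pecam1, Vwf and Kdr below 1 CPM in every library and most of the sum from Tek) summed to at most 18.2 CPM, macrophage markers (3 of 6, with Cd68 below 1 CPM in every library) to at most 16.8 CPM and Schwann cell markers (3 of 5) to at most 85.4 CPM in any library. Of the 7 skeletal muscle markers, the 2 analysed summed to 84.9 to 263 CPM in young and 27.8 to 46.0 CPM in old, most of the young sum coming from the actin Acta1. These 2 markers went opposite ways. The mean of Acta1 went from 156 CPM in young to 13.7 CPM in old (log2 fold change -3.51), and that of Tnnt3 from 10.7 to 20.2 CPM (0.92). In cultures of mixed cells, fewer cells of a type and less RNA per cell cannot be told apart, and the part of these shifts in the results was not tested.

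Upstream sequences are shown for Sirt1, which had the smallest age difference of the 8 genes, and for Sirt2, which had the widest spread among old libraries. They are the 250 bases before the RefSeq start site on the GRCr8 assembly, on the plus strand, 5′ to 3′. Capitals mark the E-box CACGTG, the GC box GGGCGG and the CCAAT box CCAAT, each searched on both strands, and these motifs did not overlap.
Sirt1, chr20:25305703-25305952: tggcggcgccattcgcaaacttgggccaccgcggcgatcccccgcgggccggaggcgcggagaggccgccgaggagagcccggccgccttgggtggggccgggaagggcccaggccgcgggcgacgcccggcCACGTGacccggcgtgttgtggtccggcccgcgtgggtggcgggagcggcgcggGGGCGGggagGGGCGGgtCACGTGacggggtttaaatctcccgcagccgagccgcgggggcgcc
Sirt2, chr1:93181222-93181471: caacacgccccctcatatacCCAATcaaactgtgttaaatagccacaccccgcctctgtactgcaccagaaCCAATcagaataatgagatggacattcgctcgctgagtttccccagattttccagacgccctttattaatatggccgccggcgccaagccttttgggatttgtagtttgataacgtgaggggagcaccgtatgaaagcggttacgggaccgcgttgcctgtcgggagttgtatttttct

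The Sirt1 window was 79.6% G and C and held 2 E-boxes, beginning 118 and 46 bases before the start, and 2 GC boxes between them at 64 and 54 bases. The Sirt2 window was 50.0% G and C and held 2 CCAAT boxes, beginning 230 and 179 bases before the start, with no E-box and no GC box. Among 33469 rat promoters, 5.59% held an E-box, 30.5% a GC box and 34% a CCAAT box in the same window, and 12.9% held TATAAA, which was also searched and occurred in none of the windows found here. A promoter entry was found for 6 of the 8 genes. Sirt3 had 3 GC boxes and 1 CCAAT box, Sirt5 had 1 CCAAT box, Sirt7 had 1 GC box, and Sirt4 had no match to these letters. Of these 6 windows, only those of Sirt1 and Sirt2 lie wholly outside the annotated span of their own gene. A letter match is not evidence that a factor binds.

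All 8 genes had a higher estimate in old than in young VSM cells, where 52% of all genes did. They are not 8 separate results, since they share the same 6 libraries and several moved together. Pearson's r of log2 CPM between members ran from 0.0275 (Sirt1 and Sirt6) to 0.972 (Sirt3 and Sirt5). By the quasi-likelihood test of edgeR, 0 of the 8 genes met both criteria of a differentially expressed gene (adjusted p under 0.05 and a change of 1 or more on the log2 scale), and 1 gene of the whole table did (0.00691%). Nampt alone passed an adjusted p under 0.1, as 4.55% of all genes did. At an unadjusted p under 0.05, 5 of the 8 were higher in old (Nampt, Sirt2, Sirt3, Sirt4 and Sirt5) and 0 were lower, while 22.6% of all genes passed, 11.2% higher and 11.5% lower. The old libraries lay wholly above the young libraries for 4 of the 8 (Nampt, Sirt3, Sirt4 and Sirt5), and below them for 0 of the 8. Over all genes 29.2% did not overlap, 14.5% higher and 14.7% lower. The median log2 fold change of the 8 genes was 0.38 and that of all genes 0.02. On the same counts, DESeq2 also called 0 of the 8 genes by both criteria, and 5.68% of all genes. By the adjusted p alone, DESeq2 passed Nampt, Sirt4 and Sirt5, each higher in old, while 12.5% of all genes passed and 5.71% were higher, and limma-voom passed 0 of the 8 genes and 0% of the table.

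**Figure D1:**
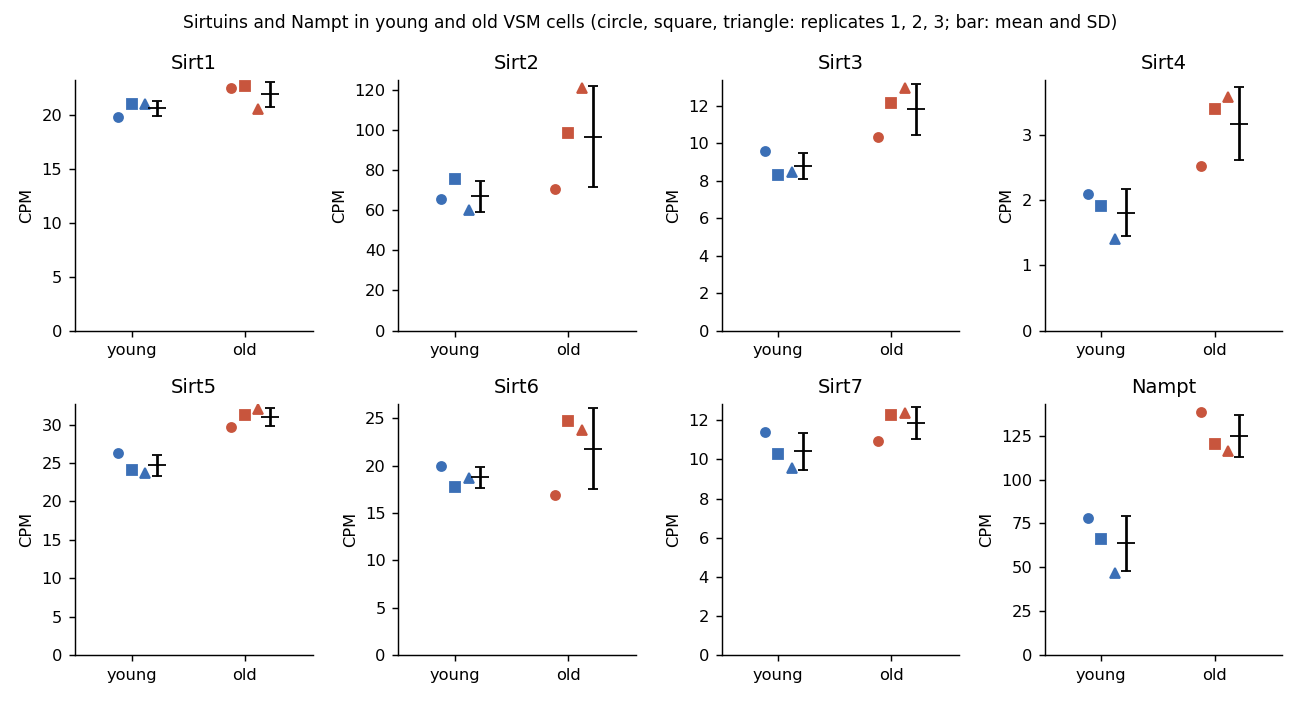
Level of each gene in CPM (vertical axis, from 0) in the 3 young (blue) and 3 old (red) libraries, with the marker shape giving the replicate and the black bar the mean and SD. For Nampt, Sirt3, Sirt4 and Sirt5 the old points lie above the young points, while Sirt1, Sirt2, Sirt6 and Sirt7 overlap.

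Nampt (ENSRNOG00000009754), the salvage enzyme, had the largest difference of the 8 genes. Its level was 78.0, 65.9 and 46.8 CPM in young replicates 1, 2 and 3 and 138, 120.2 and 116 CPM in the old ones. The lowest old library was well above the highest young library, and the young libraries varied more than the old ones, with a coefficient of variation of 24.7% against 9.56%. The means were 63.6 ± 15.7 CPM (SD, n = 3) and 125 ± 11.9 CPM (SD, n = 3), or 1.96-fold. On the log2 scale the difference was 0.97 with an SE (standard error) of 0.20 and an edgeR adjusted p of 0.0762. The 95% interval of the log2 fold change ran from 0.50 to 1.44. DESeq2 gave an adjusted p of 0.000478 and limma-voom 0.0791, and the edgeR likelihood ratio test gave 0.00163, a test that passed 7.55% of genes by adjusted p, of which the genes higher in old made 3.38% of the table, and 5% by both criteria. When single libraries were left out, the log2 fold change of Nampt was between 0.80 (without young replicate 3) and 1.14 (without young replicate 1), with adjusted p from 0.0634 to 0.256 in edgeR.

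Sirt1, Sirt6 and Sirt7 are the mainly nuclear sirtuins. Sirt1 (ENSRNOG00000051592), which deacetylates FOXO factors and NF-kB, was nearly level between the ages. It had 19.8, 21.1 and 21.0 CPM in young and 22.5, 22.8 and 20.6 CPM in old libraries. The groups overlapped, and old replicate 3 was below both of the higher young libraries. The log2 fold change of Sirt1 was 0.09 (SE 0.09, edgeR adjusted p = 0.583), and its 95% interval from -0.13 to 0.31 includes 0. It was 0.06 without young replicate 1, 0.06 without old replicate 2 and 0.13 without old replicate 3.

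Sirt6 (ENSRNOG00000006393), a chromatin deacylase linked to DNA repair and glycolytic genes, had 19.9, 17.7 and 18.7 CPM in young and 16.9, 24.7 and 23.8 CPM in old libraries. Old replicate 1 was the lowest of all 6 libraries and the other two old libraries were the highest. For Sirt6 the log2 fold change was 0.22 (SE 0.16, edgeR adjusted p = 0.449), with a 95% interval from -0.17 to 0.61. Without old replicate 1 it was 0.37 (edgeR adjusted p = 0.0709), without old replicate 2 it was 0.11 (0.766) and without old replicate 3 it was 0.15 (0.700). Old replicate 1 was also the old library with the highest proliferation genes (395 CPM), whose part in the spread of Sirt6 was not tested.

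Sirt7 (ENSRNOG00000036683), a nucleolar sirtuin tied to ribosomal RNA transcription, had 11.4, 10.3 and 9.55 CPM in young and 10.9, 12.3 and 12.4 CPM in old libraries. Young replicate 1 lay above old replicate 1, and so the groups overlapped. The log2 fold change was 0.19 (SE 0.13, edgeR adjusted p = 0.400), with a 95% interval from -0.12 to 0.49.

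Sirt2 (ENSRNOG00000020102) is mainly cytosolic and is known as a tubulin deacetylase. It had 65.5, 75.3 and 59.8 CPM in young and 70.4, 98.5 and 121 CPM in old libraries. Old replicate 1 fell among the young libraries while the other two old libraries lay above them, which gave an SD of 25.3 CPM in old against 7.82 CPM in young. The log2 fold change of Sirt2 was 0.53 (SE 0.21, edgeR adjusted p = 0.204), from 66.9 CPM in young to 96.6 CPM in old. Without old replicate 1 it was 0.71 and passed the threshold on the adjusted p (0.0467 from edgeR), in a fit where 9.53% of all genes passed, 3.73% higher in old (5.06% by both criteria), whereas without old replicate 3 it was 0.34 (edgeR adjusted p = 0.400). The summed proliferation genes ran in the opposite order, at 395 CPM in old replicate 1, 138 CPM in old replicate 2 and 119 CPM in old replicate 3, and their part in the spread of Sirt2 was not tested. On GRCr8, Sirt2 overlaps 1 other annotated locus and Sirt4 overlaps 2, and without the strand setting of the counting, reads from such loci cannot be told apart from theirs.

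The mitochondrial sirtuins Sirt3, Sirt4 and Sirt5 each had old libraries above all young libraries. Sirt3 (ENSRNOG00000013828), the main protein deacetylase of the mitochondrial matrix, had 9.59, 8.29 and 8.45 CPM in young and 10.3, 12.1 and 12.9 CPM in old libraries. The gap between the groups was narrow, since old replicate 1 lay just above young replicate 1. For Sirt3 the log2 fold change was 0.43 (SE 0.14, edgeR adjusted p = 0.162, DESeq2 0.0660), or 1.34-fold.

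Sirt4 (ENSRNOG00000001151), a lipoamidase and ADP-ribosyltransferase that restrains glutamate dehydrogenase, had the fewest reads, with 95, 115 and 69 counts in the young and 126, 177 and 192 counts in the old libraries. As CPM these were 2.10, 1.91 and 1.40 in young and 2.53, 3.41 and 3.58 in old. Each old library was above each young library. For Sirt4 the log2 fold change was 0.81 (SE 0.26, edgeR adjusted p = 0.157, DESeq2 0.0396), or 1.76-fold, the largest of the 7 sirtuins. If both mates of each pair were counted, counting error alone would give a coefficient of variation of 12.5% at the mean Sirt4 count of all 6 libraries. The young counts were below that mean, so their counting error would be larger. The coefficient of variation seen was 20.0% among young and 17.7% among old libraries.

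Sirt5 (ENSRNOG00000017866), which removes succinyl, malonyl and glutaryl groups, had the tightest groups of the genes that separated. It had 26.3, 24.1 and 23.7 CPM in young and 29.7, 31.3 and 32.1 CPM in old libraries. The means were 24.7 ± 1.38 CPM (SD, n = 3) and 31.0 ± 1.20 CPM (SD, n = 3), so the difference was several times the SD of either group. The log2 fold change of Sirt5 was 0.33 (SE 0.09, edgeR adjusted p = 0.119, DESeq2 0.0215), with a 95% interval from 0.12 to 0.54. Its fold, 1.26, was below the 2-fold change asked of a differentially expressed gene, which no value inside that interval reaches.

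**Figure D2:**
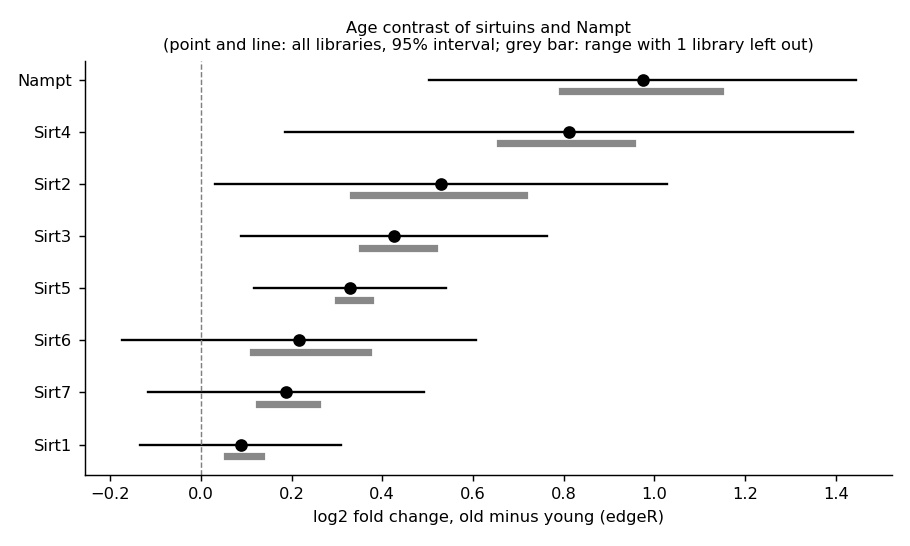
Log2 fold change of each gene (horizontal axis, old minus young, edgeR) as a point with its 95% interval, and as a grey bar the range of the estimate when 1 library at a time is left out. The intervals of Nampt, Sirt4, Sirt2, Sirt3 and Sirt5 lie above 0 and those of Sirt6, Sirt7 and Sirt1 include 0, and every grey bar lies above 0.

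Ratios of 2 genes within a library do not depend on how libraries are scaled to each other. Sirt1, the flattest member in this same age contrast, served as the denominator, so the ratios are not separate evidence of an age difference. Counts of different genes also reflect transcript length, for which no value was used here, so these ratios compare libraries and do not rank the genes. The ratio of Nampt to Sirt1 was 3.93, 3.13 and 2.23 in the young and 6.15, 5.28 and 5.64 in the old libraries. The groups did not overlap, and the mean ratio went from 3.10 ± 0.853 to 5.69 ± 0.439 (SD, n = 3 each), 1.84-fold. The ratio of Sirt4 to Sirt1 also did not overlap, with 0.106, 0.0907 and 0.0668 in young and 0.113, 0.150 and 0.174 in old, although old replicate 1 was close to young replicate 1. The ratios of the other 5 sirtuins to Sirt1 overlapped between the groups, including those of Sirt3 and Sirt5, for which old replicate 1 fell below young replicate 1. Over the 7 ratios, exact permutation tests (two-sided, unadjusted) gave p from 0.1, the smallest that 3 libraries against 3 allow, to 0.6, so none could pass 0.05.

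**Figure D3:**
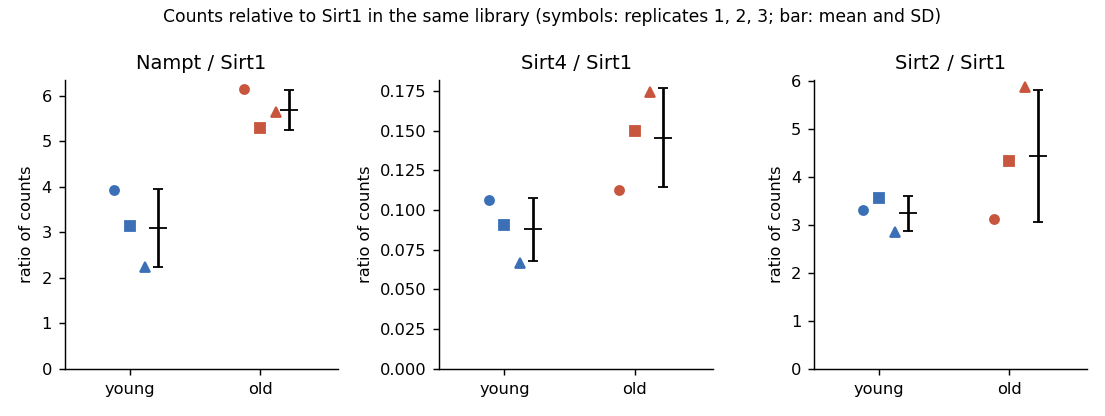
Counts of Nampt, Sirt4 and Sirt2 divided by the Sirt1 count of the same library (vertical axis, from 0), for 3 young (blue) and 3 old (red) libraries, with the black bar giving mean and SD. The Nampt ratio is above 5 in each old library and below 4 in each young library, and the Sirt2 ratio of old replicate 1 lies among the young values.

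Nampt is 1 of several entries into NAD+, and 18 of 25 other genes of NAD synthesis, phosphorylation and transport were analysed here. At an unadjusted p under 0.05, 5 of the 18 were higher in old and 0 were lower (11.2% and 11.5% of all genes), 0 passed an adjusted p under 0.05, and the median log2 fold change was 0.26 against 0.02 for all genes. Qprt, which makes the NAD precursor nicotinic acid mononucleotide from quinolinate, had 3.32, 1.46 and 0.794 CPM in young and 10.5, 20.9 and 5.30 CPM in old libraries. Each old library was above each young library, but both groups varied severalfold, and the log2 fold change of Qprt was 2.72 (SE 0.69, edgeR adjusted p = 0.111).

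Nmnat3, the mitochondrial adenylyltransferase of the last step to NAD+, had 4.54, 4.72 and 4.07 CPM in young and 6.61, 5.89 and 10.1 CPM in old libraries, and the groups did not overlap. Its log2 fold change was 0.76 (edgeR adjusted p = 0.153). The mitochondrial NAD+ carrier Slc25a51 went from 79.1 ± 1.05 CPM to 114 ± 29.6 CPM (SD, n = 3 each), with a log2 fold change of 0.53 (edgeR adjusted p = 0.175), and again old replicate 1, at 89.6 CPM, was the old library closest to young. The mitochondrial NAD kinase Nadk2 (0.69 on the log2 scale) and Naprt, which uses nicotinic acid (0.71), had adjusted p of 0.199 and 0.219 in edgeR. Neither gene overlapped between the groups.

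The nuclear adenylyltransferase Nmnat1 went from 15.8 to 14.6 CPM, a log2 fold change of -0.11 with a 95% interval from -0.46 to 0.23. The cytosolic NAD kinase Nadk was at 92.9 CPM in young and 110.2 CPM in old (edgeR adjusted p = 0.282), without overlap. Nnmt, which methylates nicotinamide and so takes it out of salvage, had 22.2 and 28.7 CPM (edgeR adjusted p = 0.249), and the transhydrogenase Nnt had 135 and 141 CPM. The axonal adenylyltransferase Nmnat2 was below 1 CPM on average in both groups.

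Among other NAD-consuming enzymes, the share of genes past the unadjusted test was near that of all genes. Of 18 listed PARP family members and NAD glycohydrolases 17 were analysed, and at an unadjusted p under 0.05, 2 were higher and 2 lower in old (22.6% of all genes passed, 11.2% higher and 11.5% lower), with 0 at an adjusted p under 0.05 and a median log2 fold change of 0.16. Cd38, a membrane glycohydrolase regarded as a major NAD-degrading enzyme of mammalian tissue, had the largest difference of the list and was lower in old. Its level was 117, 154 and 179 CPM in young and 68.2, 63.0 and 40.6 CPM in old libraries. The groups did not overlap, and the log2 fold change of Cd38 was -1.39 (SE 0.24, edgeR adjusted p = 0.0644, DESeq2 1.47e-05).

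Parp1, the main poly(ADP-ribose) polymerase of DNA damage, had 59.6 ± 3.44 CPM in young and 59.0 ± 5.60 CPM in old (SD, n = 3 each), and its 95% interval on the log2 scale ran from -0.26 to 0.23. Parp2 had 18.5 CPM in both groups. Parp6 (0.41 on the log2 scale) and Parp16 (0.27), both mono(ADP-ribosyl) transferases, were the pair higher in old at an unadjusted p under 0.05, and Parp12 (-0.32) was lower with Cd38. Bst1, a relative of Cd38, had 53.6, 134 and 38.5 CPM in the old libraries and a log2 fold change of 0.24 (SE 0.48, edgeR adjusted p = 0.784), and Sarm1 stayed near 2 CPM in both groups.

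**Figure D4:**
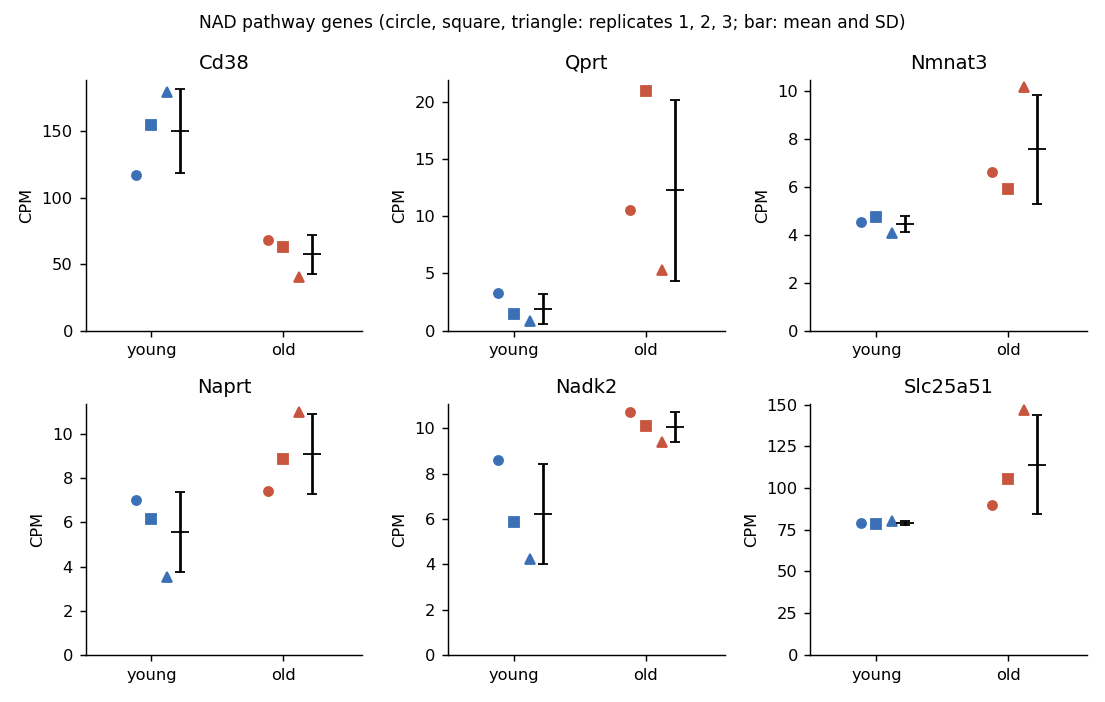
Level in CPM (vertical axis, from 0) of Cd38 and of 5 genes of NAD synthesis and transport in 3 young (blue) and 3 old (red) libraries, with the black bar giving mean and SD. The old points of Cd38 lie below its young points, and those of Qprt, Nmnat3, Naprt, Nadk2 and Slc25a51 lie above theirs.

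Of the genes encoding known binding partners and regulators of SIRT1, 14 of 16 were analysed and 1 was lower and 0 were higher in old at an unadjusted p under 0.05 (22.6% of all genes passed), 0 passed an adjusted p under 0.05, and their median log2 fold change was 0.00. The gene was Prkaa2, the α2 catalytic subunit of AMP-activated kinase, with 2.59, 2.64 and 3.56 CPM in young and 1.09, 0.385 and 0.672 CPM in old libraries (log2 fold change -2.04, edgeR adjusted p = 0.0768). The other catalytic subunit gene, Prkaa1, was far more abundant, at 57.6 CPM in young and 53.6 CPM in old. Its groups overlapped (log2 fold change -0.10, edgeR adjusted p = 0.614). The SIRT1 inhibitor Ccar2 had nearly equal means, 39.2 ± 0.393 CPM in young and 39.5 ± 2.40 CPM in old (SD, n = 3 each).

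Of 23 genes listed for substrates of the nuclear and cytosolic sirtuins, 21 were analysed. At an unadjusted p under 0.05, 4 were higher and 1 lower in old, a share near the 22.6% of all genes. At an adjusted p under 0.05, 0 passed, and the median log2 fold change was 0.14. The lipid regulator Srebf1 had 30.1, 27.4 and 25.5 CPM in young and 122, 86.7 and 139.9 CPM in old libraries (log2 fold change 2.07, edgeR adjusted p = 0.0531). Acss2, the acetyl-CoA synthetase that SIRT1 activates by deacetylation, had 24.9, 19.5 and 14.8 CPM in young and 84.2, 62.4 and 67.4 CPM in old libraries (log2 fold change 1.85, edgeR adjusted p = 0.0531). Both genes were over 3-fold higher with no overlap between the groups.

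The stress-response factor Foxo3 went from 15.3 ± 4.04 CPM to 26.0 ± 0.388 CPM (SD, n = 3 each), 0.76 on the log2 scale (edgeR adjusted p = 0.117). Hif1a, the oxygen-sensitive factor, had 342, 228 and 152 CPM in young and 610.0, 937 and 327 CPM in old libraries, which overlapped (log2 fold change 1.38, edgeR adjusted p = 0.160). The tubulin gene Tubb2a was the 1 lower gene by p, at -0.53 on the log2 scale (edgeR adjusted p = 0.156), and its groups did not overlap. It encodes a β-tubulin, whereas the tubulin known as a SIRT2 substrate is α-tubulin. Foxo1 (log2 fold change 0.36) and Ppargc1a (0.64, with both means under 2 CPM) each overlapped between the groups, with adjusted p of at least 0.435 in edgeR.

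Of 24 genes encoding substrates of the mitochondrial sirtuins, 22 were analysed, with 2 higher and 3 lower in old at an unadjusted p under 0.05, again near the 22.6% of all genes, 0 at an adjusted p under 0.05 and a median log2 fold change of -0.06. The matrix protease Lonp1 was higher, from 139 ± 6.38 CPM to 195 ± 17.6 CPM (SD, n = 3 each, log2 fold change 0.49, edgeR adjusted p = 0.0802).

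Also at an unadjusted p under 0.05 in the mitochondrial list were the fatty acid oxidation subunit Hadha (0.26 on the log2 scale), malonyl-CoA decarboxylase Mlycd (-0.57) and malate dehydrogenase Mdh2 (-0.31). Superoxide dismutase Sod2, a SIRT3 substrate, ranged from 82.8 to 327 CPM in young and from 81.3 to 441 CPM in old libraries, with a log2 fold change of -0.10 (SE 0.77). The NADP-dependent isocitrate dehydrogenase Idh2 had 73.8 and 58.1 CPM and glutamate dehydrogenase Glud1 had 265 and 319 CPM in young and old, with adjusted p of 0.473 and 0.483 in edgeR.

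The zinc-dependent histone deacetylases, which do not use NAD+, served as a comparison within the deacetylases. All 11 were analysed, with 2 higher (Hdac5 and Hdac8) and 1 lower (Hdac6) in old at an unadjusted p under 0.05 (11.2% and 11.5% of all genes), 0 at an adjusted p under 0.05 and a median log2 fold change of 0.03, where the 7 sirtuins had 4 higher, 0 lower and a median of 0.33. Whether the 2 families differ was not tested. Hdac5, a class II enzyme that represses MEF2, went from 54.3 to 69.0 CPM (0.34 on the log2 scale, edgeR adjusted p = 0.116). Hdac6, which like Sirt2 deacetylates tubulin, overlapped between the groups and went from 67.4 ± 15.2 to 46.5 ± 7.77 CPM (SD, n = 3 each, -0.53 on the log2 scale, edgeR adjusted p = 0.201), the direction opposite to that of Sirt2. Across these pathway lists limma-voom passed 0 genes by adjusted p, while DESeq2 passed 2 higher in NAD synthesis, 1 lower among the NAD consumers, 1 lower among the SIRT1 regulators, 4 higher among the nuclear and cytosolic substrates, 1 higher and 2 lower among the mitochondrial substrates, and 1 higher among the histone deacetylases. Over all genes DESeq2 passed 12.5%, with 5.71% higher in old.

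The genes whose levels most resembled each member over the 6 libraries were found by Pearson's r of log2 CPM among genes averaging at least 10 CPM. With 6 libraries and 8567 genes compared, high values arise readily, and genes that differ with age share that contrast. Nampt was nearest to the growth factor binding protein Igfbp4 (r = 0.995), which went from 32.2 to 166 CPM, and to Stx4 (r = 0.994). Sirt2 was nearest to the lysosomal protease Ctsd (r = 0.999), from 378 to 641 CPM. For Sirt5 they were Zbtb37 (r = 0.996) and Zmynd8 (r = 0.995), for Sirt4 Ralgdsl1 (r = 0.996) and Mllt10 (r = 0.994), and for Sirt3 the mitochondrial ribosomal protein Mrpl44 (r = 0.995) and Zfp105 (r = 0.995). Sirt1 was nearest to the exosome subunit Exosc4 (r = 0.994) and to Chchd3 (r = 0.988), Sirt6 to Acin1 (r = 0.996) and Gramd1a (r = 0.987), and Sirt7 to Gigyf2 and Actmap (r = 0.991 each).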

How the data were processed

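The authors deposited raw counts, whole numbers per gene and library, not normalized, and every gene listed reached 10 counts in 3 or more libraries. Per the Methods and the submitters' processing notes, reads were trimmed (cutadapt 3.5, Trim Galore 0.6.7), aligned with STAR 2.7.10b to Rnor 6.0 and counted with featureCounts (Subread 2.0.8). The Methods name a RefSeq annotation, whereas the genes of the table carry Ensembl identifiers, and the annotation used was not settled here. How strand, mates and multi-mapping reads were handled in counting is not given in the sources used. Libraries were grouped by age from the sample titles. Their Spearman's rho within a group was 0.973 to 0.991 and none repeated another.

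All 14475 genes were tested with edgeR 4.0.16 under R 4.3.3 (TMM, quasi-likelihood F test, Benjamini-Hochberg adjustment over all genes, no covariates), and with DESeq2 1.42.0 (292 genes without an adjusted p) and limma 3.58.1 as alternatives. Standard errors were taken as |log2 fold change| over the root of F, and 95% intervals use the test's degrees of freedom. CPM use TMM-scaled library sizes, and correlations used log2(CPM + 0.5). Further alternatives were edgeR's likelihood ratio test, filterByExpr, RLE factors, library size only, halved counts, a replicate block, an adjusted p of 0.1, no fold criterion and each library left out. The p-values of these fits weigh the age difference against the spread between libraries within a group, moderated with other genes.

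The genes and lists were chosen with earlier results of these data known. The genes named were the 8 members, up to 6 genes per list with the lowest p under 0.05, fixed neighbors in the pathway, and the 2 genes nearest to each member. Some genes that this rule names are not reported here. Genes in the lists were matched by symbol, 142 of 168. Promoters are from RefSeq (GRCr8), while the counts rest on another assembly. No sample column was left unused.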

Additional observations from a re-analysis of the deposited data

How the results depend on the processing

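With all libraries, 1 gene of the table was called. DESeq2 called 805, the edgeR likelihood ratio test 724, limma-voom 0, and relaxing the adjusted p to 0.1 gave 381, with no sirtuin or Nampt among them, since Nampt then missed the fold criterion. With 1 library left out the number ran from 0 to 732, and 732 was without old replicate 1. Of the 16 alternatives, 14 refit the counts. Under each of these, 0 of the 8 sirtuin and Nampt genes passed both thresholds, and each gene kept a positive log2 fold change. An adjusted p of 0.1 and no fold criterion each relaxed a threshold of the main edgeR fit only, and also called 0 of the 8. The number of the 8 at an unadjusted p under 0.05, which was 5 with all libraries, ran from 2 to 6 with 1 library left out. It was 2 without young replicate 3, without old replicate 2 and without old replicate 3 (Sirt5 and Nampt each time), and 6 without old replicate 1. On the adjusted p alone, Sirt2 passed without old replicate 1, Nampt under the likelihood ratio test, and Nampt, Sirt4 and Sirt5 under DESeq2. With the replicate block the number was 3 (Sirt4, Sirt5 and Nampt). The main fit followed the age-only design of the Methods and did not pair libraries by number. The correlations between same-numbered libraries' deviations were 0.0633, 0.312 and 0.293, and 3 of the 6 libraries correlated best with their own number. Whether same-numbered libraries shared a processing step was not tested. Another filter, RLE size factors, library size only and halved counts left these numbers unchanged. The median log2 fold change of all genes lay within 0.1 of 0 under every scaling. The fewest reads were those of Sirt4, down to 69 counts in a library.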
